A study of Mus musculus with 6 samples.

Results

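The 34 genes described here are interferon-stimulated genes, listed by symbol and matched to the gene symbols of the 6 libraries of the series. All 34 were found among the 40879 gene symbols of each library, and 30 of them passed the filter on low counts that left 12776 genes for testing. The rule used no value measured in these libraries, but the members were listed with earlier results of these data known. It covers transcription factors of the interferon response (Stat2, Irf1, Irf7 and Irf9), the ISG15 system, Ifit and Oas genes, large and dynamin-like GTPases, antiviral membrane proteins, and genes of RNA sensing and editing. The cells were labelled as primary hepatic stellate cells of wild-type male mice. They were kept in culture for 24 h with vehicle (3 libraries) or with APB-R3 (3 libraries). APB-R3 is an engineered interleukin-18 binding protein (IL-18BP), a secreted decoy that holds IL-18 away from its receptor. Its dose is 150 µg/ml in the series text and 150 µg/kg in the sample protocol, so the unit could not be settled. The strain and age of the mice, and whether replicates came from different animals or cultures, are not given in the labels, so a p-value here speaks only of how these samples scatter, which may be technical.

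Type I interferons signal through the receptor chains IFNAR1 and IFNAR2 and the kinases JAK1 and TYK2 to a complex that holds STAT2 and IRF9 and binds the interferon-stimulated response element (ISRE). Interferon gamma signals through IFNGR1 and IFNGR2, acts on genes with a gamma-activated site (GAS) and induces IRF1, guanylate-binding proteins (GBPs) and immunity-related GTPases (IRGs). IL-18 is best known for driving natural killer and T cells to make interferon gamma. In liver, interferon responses are known from hepatocytes, Kupffer cells, endothelial cells and stellate cells alike.

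To show the regulatory sequences behind the gene list, the 250 bases before each gene's start were taken from RefSeq promoters of the build GRCm38.p6, which had an entry for 27 of the 34 members. The read counts were made on GRCm39, so these coordinates serve for the sequences only. The ISRE was searched as GAAA, then NN, then GAAA and the GAS as TTC, then NNN, then GAA, where N is any base, on both strands and allowing overlaps. At least 1 ISRE match stood in 14 of the 27 members (51.9%), against 3.46% of all 27025 genes with a promoter entry. A GAS match stood in 8 of the 27 (29.6%), against 8.13% of all genes. In Bst2 a GAS match overlapped an ISRE match. The 5 members below are shown because the results turn on them: Gbp2 had the smallest p-value of the list, and Isg15, Ifit1, Rsad2 and Oas1a stood out in the same library. Each line is the 150 bases before the start, 5′ to 3′ in the direction of the gene, with ISRE and GAS matches in capitals. They lie at chr3:142620513-142620662 (Gbp2, plus strand), chr4:156200819-156200968 (Isg15, minus strand), chr19:34640739-34640888 (Ifit1, plus strand), chr12:26456453-26456602 (Rsad2, minus strand) and chr5:120907526-120907675 (Oas1a, minus strand).
Gbp2: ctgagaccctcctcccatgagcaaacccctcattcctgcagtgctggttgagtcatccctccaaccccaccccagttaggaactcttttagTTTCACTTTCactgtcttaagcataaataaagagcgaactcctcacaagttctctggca
Isg15: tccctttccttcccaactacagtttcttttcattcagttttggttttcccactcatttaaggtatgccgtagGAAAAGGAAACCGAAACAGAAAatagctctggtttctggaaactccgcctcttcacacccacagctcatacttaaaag
Ifit1: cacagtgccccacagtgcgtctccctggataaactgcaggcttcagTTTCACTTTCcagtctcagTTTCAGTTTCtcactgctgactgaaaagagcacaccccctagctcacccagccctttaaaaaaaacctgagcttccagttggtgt
Rsad2: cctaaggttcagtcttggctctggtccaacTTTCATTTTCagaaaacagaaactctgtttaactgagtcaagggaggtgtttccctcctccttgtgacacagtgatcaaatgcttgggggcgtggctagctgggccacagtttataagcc
Oas1a: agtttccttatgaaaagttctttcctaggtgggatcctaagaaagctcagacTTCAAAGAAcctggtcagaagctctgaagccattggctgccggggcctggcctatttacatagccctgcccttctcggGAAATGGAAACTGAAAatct
In Isg15, 3 overlapping ISRE matches form the single run of capitals, starting 78, 72 and 66 bases before the start. Ifit1 had ISRE matches 104 and 85 bases before its start, both on the opposite strand. Gbp2 had 1 at 59 bases and Rsad2 1 at 120 bases, also on the opposite strand. Oas1a had 2 overlapping ISRE matches close to its start, at 20 and 14 bases, and a GAS match at 98 bases. A match is a stretch of letters, not evidence that a factor was bound.

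Counting took place at the 3′ end of messenger RNA, where 1 fragment stands for 1 transcript, so levels are given as CPM, the count relative to the library total, without a length correction. Totals ran from 10431310 to 10573916 counts for vehicle, and for APB-R3 they were 8323809, 10792531 and 10074669 in order of replicate number. The labelled cell type was checked against lists of markers. The 10 endothelial markers were Lyve1, Stab1, Stab2, Clec4g, Cdh5, Kdr, Pecam1, Oit3, Gpr182 and Fcgr2b, not all of them particular to sinusoids. They summed to between 5456.8 and 6480.9 CPM per library. Sums lay between 403 and 679 CPM for 12 Kupffer cell and macrophage markers and between 432 and 504 CPM for 12 quiescent stellate cell markers. For 8 activated stellate cell markers they lay between 638 and 846 CPM. Of the 12 quiescent stellate cell markers, 10 passed the filter on low counts, as did all 8 activated ones. The quiescent markers Ngfr and Gfap stayed below it, with 8 and 4 counts over all 6 libraries. Vehicle replicate 2 stood apart in 10 hepatocyte markers, which summed to 95.7 CPM there and to between 7.81 and 15.0 CPM in the other libraries. Markers of several cell types were thus counted in every library, and the endothelial sum was far above both stellate sums in each. The lists hold different genes, so the sums are not cell shares, but they do not bear out a culture of stellate cells alone. Levels of the members are therefore those of the whole sample. Fewer cells of a type and less RNA per cell cannot be told apart.

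At an adjusted p under 0.05 (quasi-likelihood test in edgeR), 0 of the 30 tested members passed, beside 0 of all 12776 tested genes (0.0%). DESeq2 and limma-voom also called 0 members. At an unadjusted p under 0.05 there were 2 members (6.67%) in edgeR, Gbp2 and Rsad2, both higher with APB-R3, where 3.33% of all tested genes lay under that limit and 1.75% were higher. DESeq2 gave the same 2 members, beside 2.94% of all genes, and limma-voom only Gbp2, beside 3.34%. Of the 30 members, 17 had a log2 fold change above 0 and 13 below, beside 50.7% of all tested genes above 0. Their median log2 fold change was 0.012, beside 0.0032 for all tested genes. Only Gbp2 had all 3 APB-R3 libraries on 1 side of all 3 vehicle libraries (3.33% of the members), where 8.91% of all tested genes did and 4.75% with APB-R3 higher. The median half-width of the unadjusted 95% interval was 0.46 on the log2 scale. For 25 members this interval lay within a 2-fold change either way, and for 15 of these within a 1.5-fold change. The 5 members with wider reach were Ifit1, Ifit2, Oas1a, Gbp2 and Xaf1, which are named after their values were seen.

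**Figure D1:**
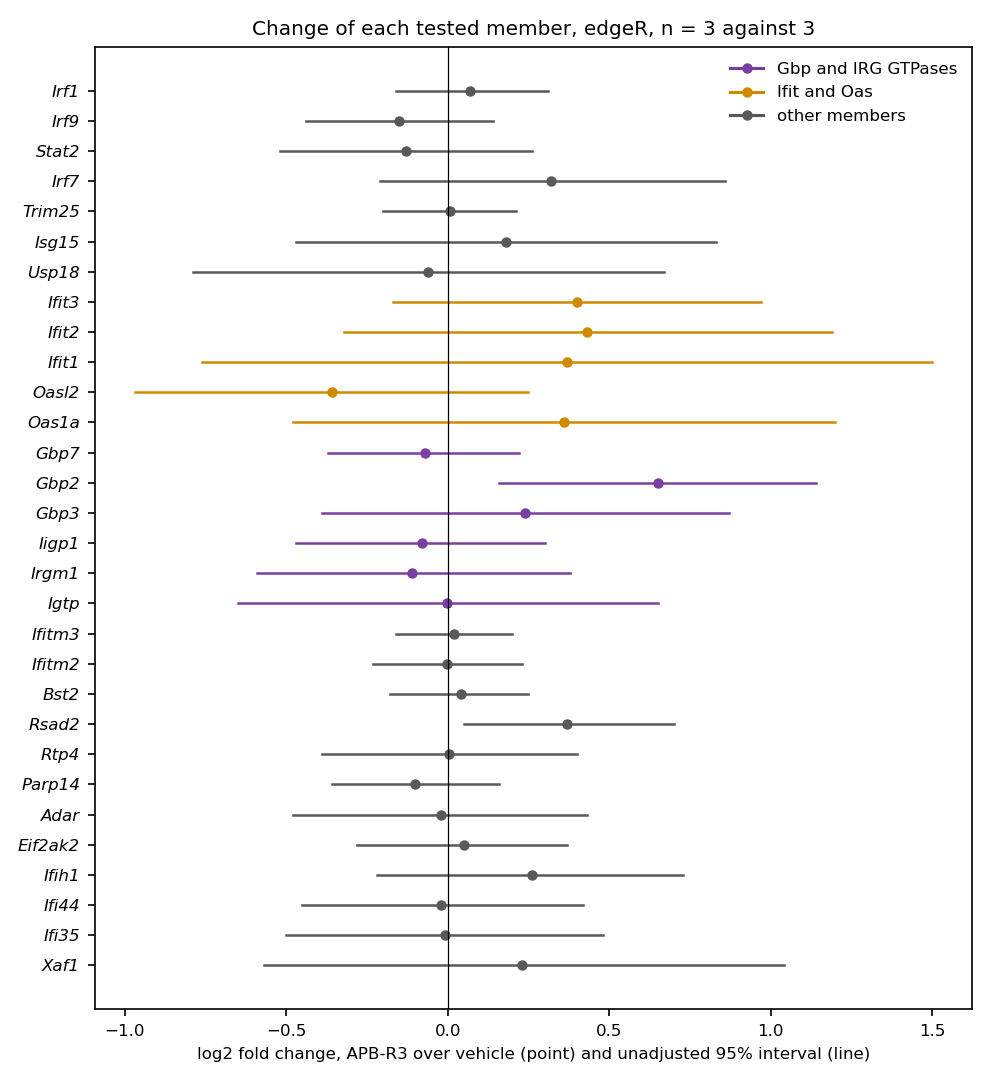
log2 fold change of each of the 30 tested members, APB-R3 over vehicle (x axis), with the unadjusted 95% interval from edgeR as a line, n = 3 against 3. Members are ordered by role, GBP and IRG GTPases are purple and Ifit and Oas genes are orange. The intervals of Gbp2 (0.16 to 1.14) and Rsad2 (0.05 to 0.70) lie above 0, and all others include 0.

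The members spanned a wide range of levels. Ifitm3, which blocks the entry of enveloped viruses at endosomal membranes, was the most abundant with 541 ± 31.5 CPM (SD, n = 6), above 98.1% of the tested genes. Trim25, the ubiquitin ligase that activates the RNA sensor RIG-I, followed with 122 ± 7.05 CPM. Ifitm2, a relative of Ifitm3, had 105 ± 11.1 CPM and Bst2, which tethers budding virus particles to the cell surface, 102 ± 8.19 CPM. At the other end, Ifit1 had 3.08 ± 2.08 CPM, and 4 members stayed below the count filter. The median level of the 30 tested members was 13.6 CPM, against 21.4 CPM for all tested genes. Summed over the members without Ifitm3, the level was 799 ± 6.94 CPM for vehicle, and APB-R3 gave 826 ± 51.2 CPM (SD, n = 3 each). Without Ifitm3, the 3 vehicle libraries lay close together at 797, 794 and 807 CPM. The APB-R3 libraries at 862, 767 and 849 CPM lay on both sides of them. With Ifitm3 included the vehicle libraries lay farther apart, at 1291.2, 1341.3 and 1375.0 CPM. The APB-R3 libraries then had 1408.6, 1280.1 and 1424.8 CPM, again on both sides.

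**Figure D2:**
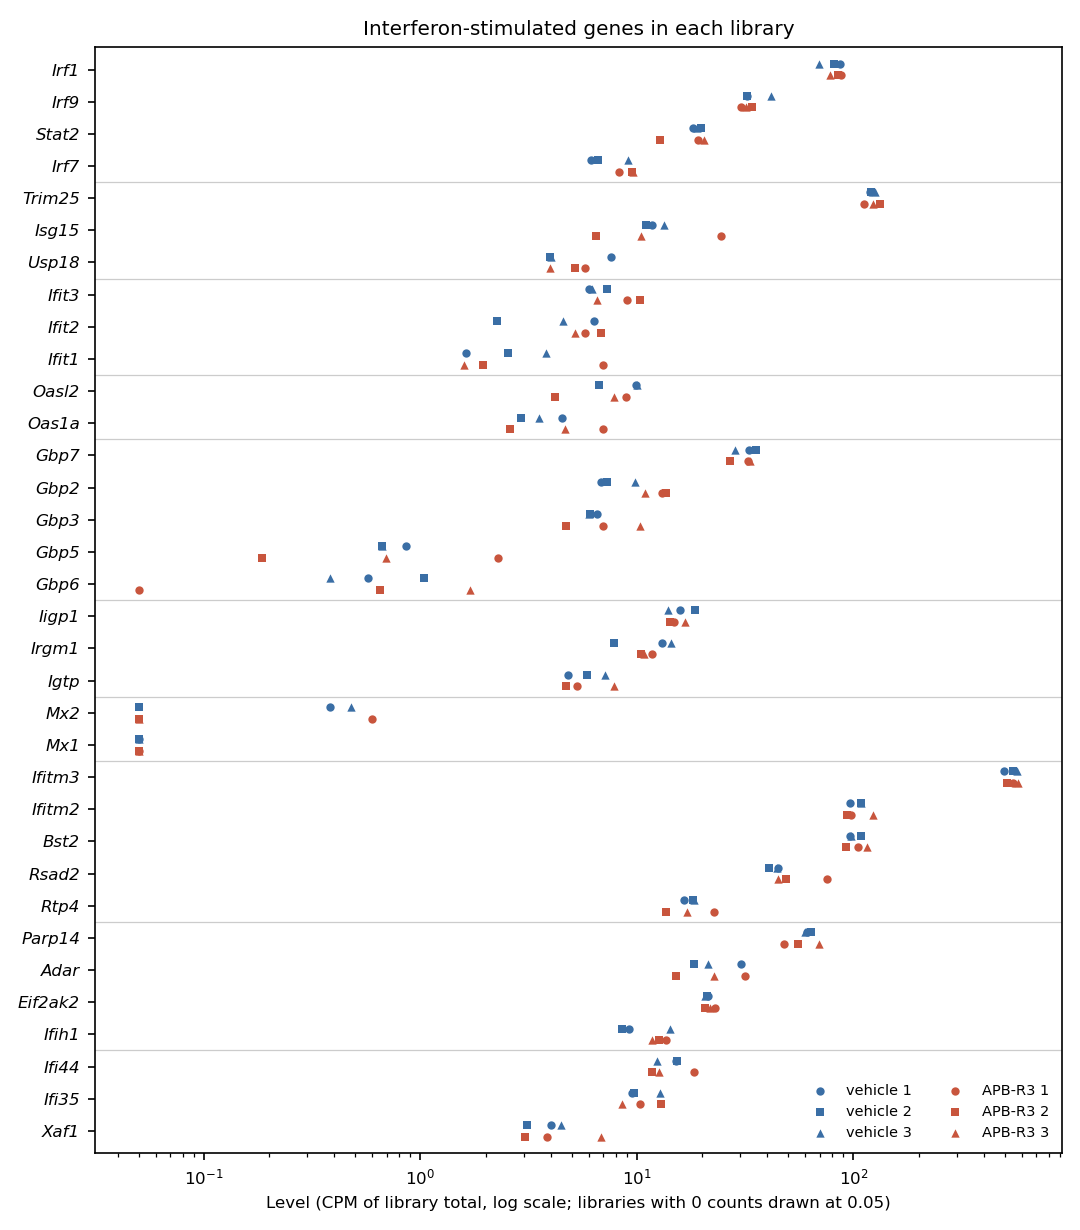
Level of each of the 34 members in each library (CPM on a log scale), ordered by role with lines between roles, blue for vehicle, red for APB-R3, and the replicate by marker shape. Libraries with 0 counts are drawn at 0.05. Ifitm3 stands at the right near 541 CPM, Mx1 and Mx2 at the left, and blue and red symbols overlap in all tested members but Gbp2.

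Among the transcription factors, Irf1, the early target of interferon gamma, had 86.7, 81.2 and 69.4 CPM in vehicle and 87.9, 84.5 and 78.3 CPM in APB-R3. Its log2 fold change was 0.07 (SE 0.11), with an unadjusted 95% interval from −0.16 to 0.31. Irf7, which amplifies type I interferon transcription, had 6.14, 6.62 and 9.14 CPM in vehicle and 8.29, 9.54 and 9.63 CPM in APB-R3. Vehicle replicate 3 lay among the APB-R3 libraries, and the log2 fold change was 0.32 (SE 0.26), or 0.51 without vehicle replicate 3 and 0.21 without vehicle replicate 1. Irf9, the DNA-binding part of the complex that recognises the ISRE, had 32.4, 32.2 and 41.8 CPM in vehicle and 30.2, 34.1 and 31.9 CPM in APB-R3. Its groups overlapped, and its log2 fold change of −0.15 (SE 0.14) was −0.02 without vehicle replicate 3. Stat2, which brings the activating domain to that complex, had 18.2, 19.7 and 19.0 CPM in vehicle and 19.1, 12.8 and 20.5 CPM in APB-R3. Only APB-R3 replicate 2 lay below the other libraries, and without it the log2 fold change went from −0.13 to 0.05.

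In the ISG15 system, Isg15, the ubiquitin-like modifier itself, had 11.8, 11 and 13.3 CPM in vehicle and 24.5, 6.49 and 10.4 CPM in APB-R3. The highest and the lowest of all 6 libraries were both APB-R3 libraries. The log2 fold change was 0.18 (SE 0.31) in all 6 libraries and −0.53 without APB-R3 replicate 1. Usp18, the protease that takes ISG15 off its targets and restrains the type I receptor, was highest in vehicle replicate 1 at 7.57 CPM, and the other 5 libraries lay between 3.97 and 5.77 CPM. Trim25 had 119, 120.3 and 126 CPM in vehicle and 112, 133 and 123 CPM in APB-R3. Both its lowest and its highest library were APB-R3 libraries, and it had a log2 fold change of 0.00742 (SE 0.10).

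The list's GTPases and its Ifit and Oas genes were set side by side, since the former are known above all as interferon gamma targets and the latter as type I targets. The 6 tested of the 8 GBP and IRG genes had a median log2 fold change of −0.038, with 2 members above 0, and the 5 Ifit and Oas genes had 0.37, with 4 above 0. These medians were not tested against each other. The Ifit and Oas median was −0.026 without APB-R3 replicate 1. The GTPase median ran from −0.102 to 0.138 with 1 library left out in turn, and it turned above 0 without APB-R3 replicate 1 (0.065), APB-R3 replicate 2 (0.138), vehicle replicate 2 (0.028) or vehicle replicate 3 (0.057). In the fits without vehicle replicates 1 or 3 or APB-R3 replicates 1 or 2, 7 of the 8 GTPases passed the filter. With no filter all 8 entered and the median was 0.11. Summed over all 8 genes, the GTPases had 81.4, 82.8 and 80.7 CPM in vehicle and 86.7, 75.4 and 92.1 CPM in APB-R3. The Ifit and Oas genes summed to 28.4, 21.8 and 28.1 CPM in vehicle and 37.6, 25.9 and 25.8 CPM in APB-R3. In both sums the groups overlapped.

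Gbp2, a GTPase that coats and opens pathogen vacuoles, had 6.81, 7.28 and 9.80 CPM in vehicle and 13.1, 13.6 and 10.9 CPM in APB-R3. All 3 APB-R3 libraries lay above all 3 vehicle libraries, by a smallest gap between 9.80 and 10.9 CPM. The log2 fold change was 0.65 (SE 0.23), a 1.57-fold difference, with an unadjusted p of 0.0111 and an edgeR adjusted p of 0.9998. It ran from 0.55 to 0.82 over all alternatives, with adjusted p from 0.902 to 0.99998. Gbp2 is thus the member with the largest fold, and it did not pass. The other GBPs did not share its pattern of separate groups. Gbp7, the most abundant GBP of the list, had 32.9, 35.5 and 28.5 CPM in vehicle and 32.6, 26.8 and 33.2 CPM in APB-R3, with a log2 fold change of −0.07 (SE 0.14). Gbp3 had 6.52, 6.05 and 6 CPM in vehicle and 6.97, 4.73 and 10.3 CPM in APB-R3. Its log2 fold change of 0.24 (SE 0.30) was −0.08 without APB-R3 replicate 3. Gbp5, which also promotes inflammasome assembly, had 51 counts over the 6 libraries and stayed below the filter, with 0.863, 0.662 and 0.666 CPM in vehicle and 2.28, 0.185 and 0.695 CPM in APB-R3. Gbp6 had 45 counts, with 0.575, 1.04 and 0.381 CPM in vehicle and 0, 0.649 and 1.69 CPM in APB-R3. In both genes the groups overlapped. The last 200 bases of a Gbp6 transcript were identical to those of Gbp10 in the GENCODE M21 transcripts, so its 3′ counts are uncertain.

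The IRGs act on pathogen vacuoles and autophagy, with Irgm1 and Igtp as regulators and Iigp1 as an effector. Irgm1 had 13.1, 7.85 and 14.4 CPM in vehicle and 11.7, 10.5 and 10.8 CPM in APB-R3. Igtp had 4.79, 5.86 and 7.14 CPM in vehicle and 5.29, 4.73 and 7.84 CPM in APB-R3. Iigp1 had 15.8, 18.6 and 13.9 CPM in vehicle and 14.9, 14.3 and 16.7 CPM in APB-R3. In each of the 3 genes the groups overlapped, and the unadjusted 95% interval of the log2 fold change ran from −0.59 to 0.38 for Irgm1, −0.65 to 0.65 for Igtp and −0.47 to 0.30 for Iigp1. The end of an Irgm1 transcript matched stretches of Ncbp3 and Ccz1 transcripts at 96.1% and 95% identity over 103 and 101 bases. The dynamin-like Mx genes were hardly counted. Mx1, an influenza restriction factor that many inbred strains carry in a broken form, had 0 counts in all 6 libraries, which allows up to 0.0494 CPM (3 counts in 60703376, counting error only). Mx2 had 14 counts in all, with 0.383, 0 and 0.476 CPM in vehicle and 0.601, 0 and 0 CPM in APB-R3.

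Of the Ifit genes, Ifit1 encodes a protein that binds foreign RNA ends. Ifit1 had 1.63, 2.55 and 3.81 CPM in vehicle and 6.97, 1.95 and 1.59 CPM in APB-R3. APB-R3 replicate 1 was the highest library and APB-R3 replicate 3 the lowest, and the log2 fold change of 0.37 (SE 0.54) was −0.60 without APB-R3 replicate 1. Ifit2 had 6.33, 2.27 and 4.57 CPM in vehicle and 5.77, 6.86 and 5.16 CPM in APB-R3, and its log2 fold change was 0.43 (SE 0.36), or 0.13 without vehicle replicate 2. Ifit3 had 6.04, 7.28 and 6.19 CPM in vehicle and 9.01, 10.3 and 6.55 CPM in APB-R3. Here 2 APB-R3 libraries lay above all vehicle libraries and the third did not, at a log2 fold change of 0.40 (SE 0.27) and an unadjusted 95% interval from −0.17 to 0.97. It was 0.24 without APB-R3 replicate 2. Of the Oas genes, Oas1a, an enzyme that makes the activator of RNase L, had 4.51, 2.93 and 3.52 CPM in vehicle and 6.97, 2.59 and 4.67 CPM in APB-R3. Its log2 fold change was 0.36 (SE 0.40), or −0.03 without APB-R3 replicate 1. The end of an Oas1a transcript matched Oas1g at 95.5% identity over 200 bases, so reads of the 2 genes may be mixed. Oasl2 had 9.87, 6.71 and 9.99 CPM in vehicle and 8.89, 4.17 and 7.84 CPM in APB-R3. It had the lowest log2 fold change of the members at −0.36 (SE 0.29), which was −0.09 without APB-R3 replicate 2.

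Of the antiviral membrane proteins, Rsad2 encodes viperin, an enzyme that makes a chain-terminating nucleotide. Rsad2 had 44.9, 40.8 and 44.4 CPM in vehicle and 75.7, 48.9 and 44.8 CPM in APB-R3. APB-R3 replicate 1 stood far above the rest, 1 other APB-R3 library lay above the vehicle libraries, and the last lay among them. The log2 fold change was 0.37 (SE 0.16) with an unadjusted p of 0.0263 and an edgeR adjusted p of 0.9998 (0.902 to 0.99998 over the alternatives), and it was 0.10 without APB-R3 replicate 1. Ifitm3 had 495, 547 and 568 CPM in vehicle and 547, 513 and 576 CPM in APB-R3. The unadjusted 95% interval of its log2 fold change, from −0.16 to 0.20, was the tightest bound of the list together with those of Trim25, Bst2 and Ifitm2. Bst2 lay between 92.7 and 115 CPM, Ifitm2 between 93.7 and 123 CPM and Rtp4, a chaperone that moves receptors to the membrane, between 13.7 and 22.6 CPM. In all 3 the lowest and the highest library were both APB-R3 libraries.

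Among genes of RNA sensing and editing, Parp14, an ADP-ribosyltransferase, had 60.8, 63.4 and 60.0 CPM in vehicle and 47.6, 55.4 and 69.5 CPM in APB-R3. The APB-R3 libraries lay on both sides of a narrow vehicle range, with a log2 fold change of −0.10 (SE 0.13). Eif2ak2, the kinase PKR that halts translation on double-stranded RNA, was the steadiest of these genes, between 20.7 and 22.9 CPM in all 6 libraries. Adar, which edits adenosine in double-stranded RNA, lay between 15.1 and 31.7 CPM, and Ifih1, the RNA sensor MDA5, between 8.51 and 14.2 CPM. Of the remaining members, Ifi44 had 15.1, 15.4 and 12.4 CPM in vehicle and 18.3, 11.7 and 12.7 CPM in APB-R3, groups that overlapped. The others ranged from 8.54 to 12.9 CPM for Ifi35 and 3.06 to 6.85 CPM for the apoptosis gene Xaf1. The log2 fold changes of Ifi44, Ifi35 and Xaf1 were −0.02 (SE 0.21), −0.01 (SE 0.23) and 0.23 (SE 0.39).

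The 6 libraries were also compared one by one. APB-R3 replicate 1 was the highest library in 9 of the 30 tested members (against 19.5% of all tested genes). APB-R3 replicate 2 was the lowest in 14 (46.7%, against 19.7%), and APB-R3 replicate 3 was the highest in 9 (against 18.5%). Vehicle libraries held the highest value in 1, 2 and 4 members (against 13.5%, 16.3% and 14.1% of all tested genes). They held the lowest in 4, 4 and 2 (against 12.7%, 20.4% and 13.5%). Counted instead by members below the mean of the other libraries, APB-R3 replicate 2 (20 of 30) did not stand apart from vehicle replicates 1 and 2 (19 and 21 of 30). Of all tested genes, 52.6%, 50.1% and 54.9% lay below in these libraries, in the same order. In APB-R3 replicate 1, 4 members had at least 1.5 times the mean of the other 5 libraries, a step that 4.84% of all tested genes reached there. They were Ifit1 at 3.02 times, Isg15 at 2.31 times, Oas1a at 1.91 times and Rsad2 at 1.69 times, the genes whose promoter stretches are printed above with Gbp2. In APB-R3 replicate 2, 7 members fell short of the other libraries' mean by the same factor or more, where 8.79% of all genes did. These were Isg15, Oasl2, Oas1a, Ifit1, Adar, Gbp3 and Stat2, with ratios from 0.457 to 0.662. A high APB-R3 replicate 1 raises the mean that Isg15, Ifit1 and Oas1a are set against in the other libraries, and Ifit1 was lower still in APB-R3 replicate 3 (0.47) and vehicle replicate 1 (0.483). In APB-R3 replicate 3, Xaf1 and Gbp3 lay above, at 1.85 and 1.71 times, where 5.28% of all genes did. Only Ifit1 lay below by that factor there, beside 5.28% of all genes. In vehicle, Usp18 lay above by that factor in replicate 1 (4.05% of all genes), where Ifit1 and Gbp2 lay below (6.14%). Ifit2, Irgm1 and Oas1a lay below in vehicle replicate 2 (9.51% of all genes). No member did so either way in vehicle replicate 3 (4.09% of all genes above and 5.1% below). These genes are named after their values were seen, and no test was made of these counts.

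**Figure D3:**
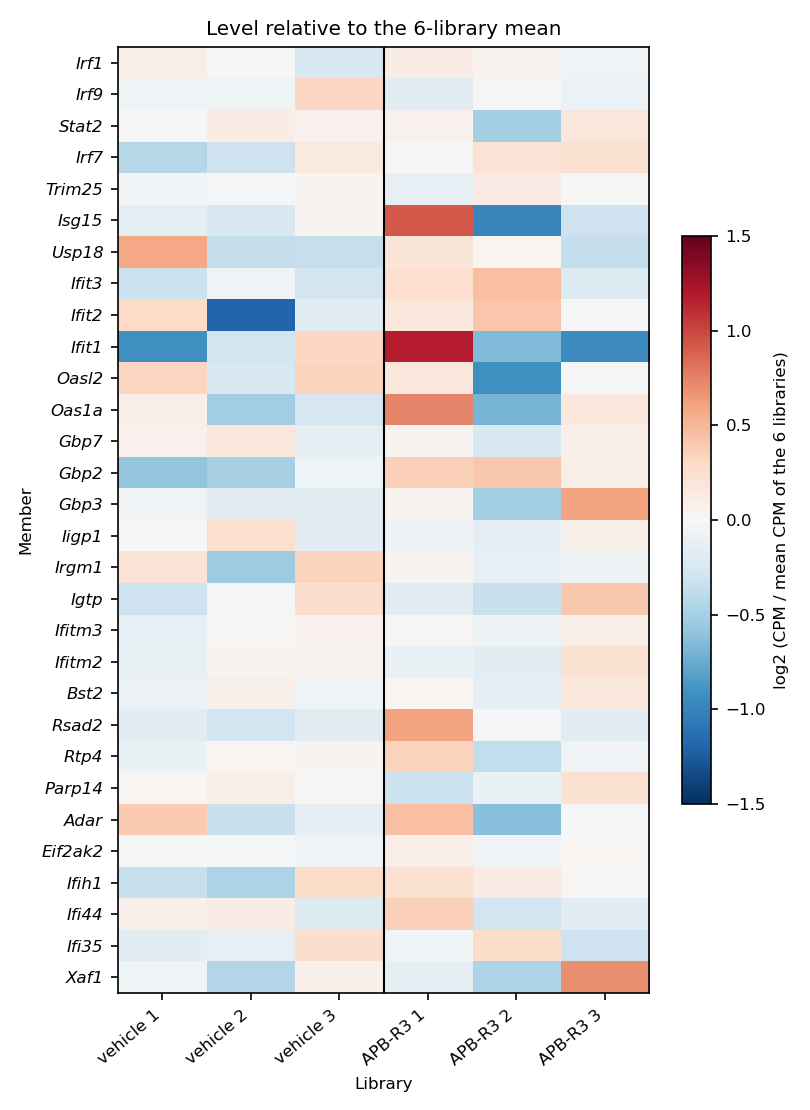
Level of each tested member in each library relative to the mean of its 6 libraries (log2 ratio of CPM, red above and blue below), with the line dividing vehicle from APB-R3. Isg15, Ifit1, Oas1a and Rsad2 are red in APB-R3 replicate 1, while Isg15, Oasl2, Oas1a and Adar are blue in APB-R3 replicate 2.

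**Figure D4:**
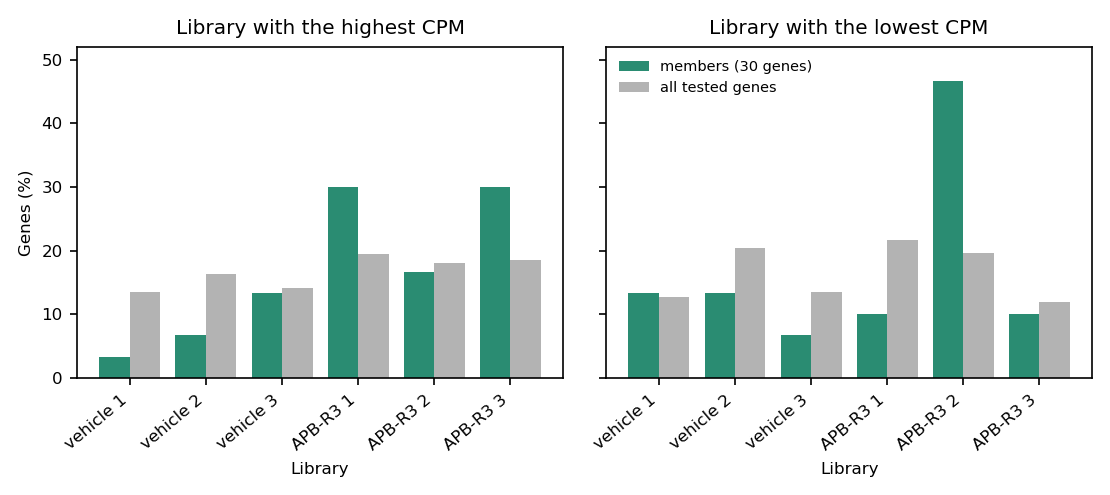
Percent of the 30 tested members (green) and of all tested genes (grey) that had their highest (left) or lowest (right) CPM in each library. APB-R3 replicate 2 holds the lowest value of 46.7% of the members against 19.7% of all genes.

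When the members were split by their promoters, 13 tested members had an ISRE match and 13 had a promoter entry without one. In APB-R3 replicate 2, the members with a match had a median of 0.824 times the mean of the other libraries and 11 of 13 lay below it. Those without a match had 1.01 times, and 6 of 13 lay below. Vehicle libraries showed similar counts: with a match, 10 of 13 lay below in vehicle replicate 1 (median 0.909) and 9 of 13 in vehicle replicate 2 (0.876), and without a match 11 of 13 lay below in vehicle replicate 2 (0.902). In APB-R3 replicate 1 the medians were 1.06 and 1.09, so that the 4 genes named above stood out from other members with a match. The median log2 fold change between the groups was 0.18 with a match and 0.02 without, and 8 of 13 were above 0 in each. This split was made after the values were seen and is a description without a test. Beside these values, APB-R3 replicate 1 also had the smallest total. The Kupffer cell and macrophage markers gave sums of 469, 476 and 679 CPM with APB-R3, in order of replicate number, beside 507, 586 and 403 CPM with vehicle. The endothelial markers gave 5456.8, 5860.0 and 6236.7 CPM with APB-R3 and 5760.6, 5993.5 and 6480.9 CPM with vehicle. Of these markers, only Timd4 of the macrophage list was near 0, with 5 counts in all. Their part in the spread of the members was not tested.

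Transcripts of interferons themselves were almost not counted. Of 21 ligand genes, 19 had 0 counts in all 6 libraries, Ifng, Ifnb1 and the Ifna genes among them. Each allows up to 0.0494 CPM by counting error only. Transcript ends of the ligands were not searched for sequence shared with other genes, so reads lost to such sharing are not covered by this bound. Ifne had 7 counts, in vehicle replicate 3 (0.476 CPM) and APB-R3 replicate 1 (0.240 CPM), and Ifnz had 4, all in vehicle replicate 1. Markers of natural killer and T cells, known sources of interferon gamma, were low. Of 12 such markers 4 had no count (Cd3e, Ncr1, Gzmb and Cd8a). The others below the filter had from 1 count (Cd3g, Trac and Nkg7) to 12 counts (Il2rb) over all 6 libraries. The list summed to between 2.46 and 3.43 CPM in vehicle and between 5.37 and 7.09 CPM in APB-R3. Most of this sum was Ccl5 and Klrb1c, the 2 that passed the filter, so it does not tell how many such cells were present. Ccl5 had 1.44, 1.42 and 2.09 CPM in vehicle and 5.29, 3.61 and 3.28 CPM in APB-R3. Its groups did not overlap, as in 8.91% of all tested genes (4.75% with APB-R3 higher). Its log2 fold change was 1.28 (SE 0.47), with an unadjusted p of 0.0116 and an edgeR adjusted p of 0.9998. For Klrb1c, whose groups did not overlap either, it was 1.11 (SE 0.68). The part of these cells in the members' levels was not tested. Of 6 markers of plasmacytoid dendritic cells, the type I interferon producers of blood, Siglech and Spib were at 0. Ccr9, Klk1 and Bcl11a had 1, 7 and 8 counts over all 6 libraries. The sum lay between 1.63 and 6.15 CPM, most of it Cox6a2, the only 1 that passed the filter.

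The receptors were well counted. Ifnar1 had 62.6, 65.7 and 71.4 CPM in vehicle and 80.3, 67.5 and 70.7 CPM in APB-R3, with the smallest p of the receptors at 0.286. Ifnar2 had 247, 248 and 225 CPM in vehicle and 265, 254 and 252 CPM in APB-R3. Its APB-R3 libraries all lay above the vehicle libraries, as in 4.75% of all tested genes, at a log2 fold change of 0.09 (SE 0.09). Ifnar2 was the only one of the 5 tested receptors with separate groups. For interferon gamma, Ifngr1 had 58.1, 64.1 and 63.2 CPM in vehicle and 60.2, 58.9 and 57.3 CPM in APB-R3. Ifngr2 had 87.4, 92.2 and 91.2 CPM in vehicle and 79.2, 83.3 and 91.6 CPM in APB-R3. The interferon lambda receptor chain Ifnlr1 had only 5 counts in all, in vehicle replicate 1 (0.192 CPM) and APB-R3 replicate 1 (0.360 CPM). Its partner Il10rb had 39.8, 50.7 and 50.8 CPM in vehicle and 53.7, 39.8 and 42.2 CPM in APB-R3, groups that overlapped. No receptor passed, and the unadjusted 95% intervals of the tested chains stayed between −0.36 and 0.36 on the log2 scale.

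Of 115 other interferon pathway genes, ligands and receptors included, 74 were tested and 0 passed in either direction in edgeR. At an unadjusted p under 0.05 there were 2, both lower with APB-R3, where 1.57% of all tested genes were lower at that limit. The median log2 fold change of the 74 was −0.04, with 31 above 0 and 43 below, and the groups did not overlap in 8 (10.8%, beside 8.91% of all tested genes). In the JAK-STAT list the smallest p was that of the kinase gene Tyk2, with 14.8, 12.5 and 17.9 CPM in vehicle and 20.4, 17.7 and 18.9 CPM in APB-R3. Among sensors and their signalling genes it was Samhd1, which depletes nucleotides needed by viruses, with 49.5, 43.3 and 43.3 CPM in vehicle and 40.8, 34.7 and 37.3 CPM in APB-R3. All 3 APB-R3 libraries lay below the vehicle libraries, at a log2 fold change of −0.28 (SE 0.13) and an edgeR adjusted p of 0.9998 (0.902 to 0.99998 over the alternatives). Among the other induced genes it was Znfx1, an RNA helicase that senses double-stranded RNA, with 67.3, 74.6 and 58.9 CPM in vehicle and 61.5, 56.9 and 48.9 CPM in APB-R3, groups that overlapped. Cxcl10, the chemokine that both interferon types induce, is added after its values were seen. It reached 10.2 CPM in APB-R3 replicate 1, while the other 5 libraries lay between 1.39 and 3.26 CPM. The 60 genes of its list together were not highest there, with 1234.4 CPM in APB-R3 replicate 1 and 1236.7 CPM in vehicle replicate 3.

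**Figure D5:**
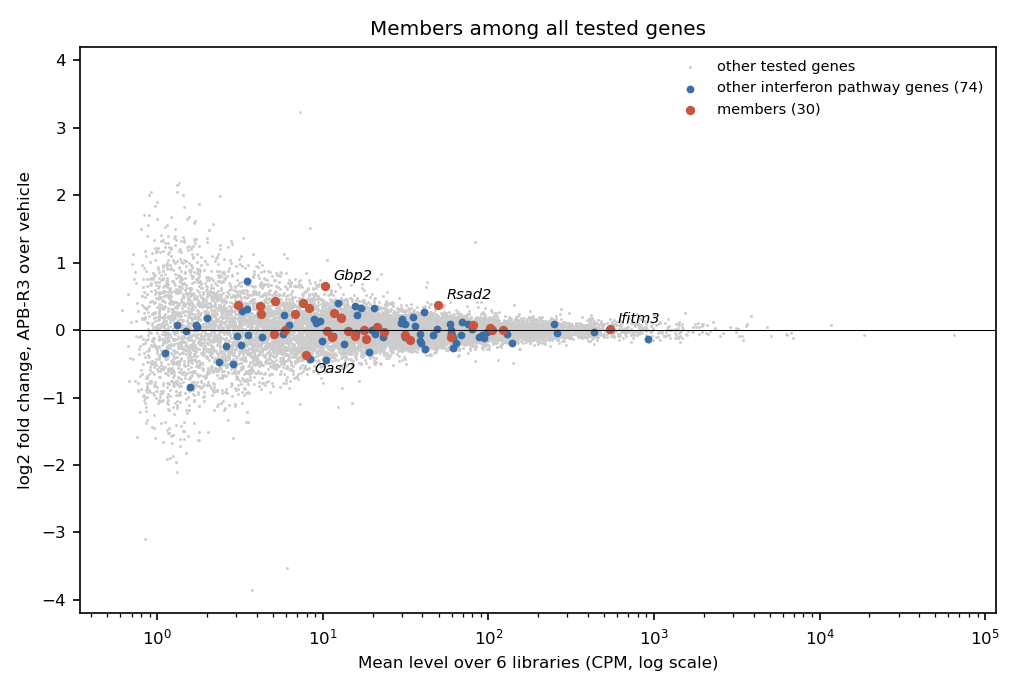
log2 fold change, APB-R3 over vehicle, against the mean level over 6 libraries (CPM on a log scale) for all tested genes (grey), the 74 tested other pathway genes (blue) and the 30 tested members (red). The members lie between −0.36 (Oasl2) and 0.65 (Gbp2), inside the cloud of all genes.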

How the data were processed

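The members and gene lists were chosen with earlier results of these data known. RNA was extracted with Trizol, and libraries came from a Lexogen QuantSeq kit, per the labels' protocols. The submitters' processing notes name bcl2fastq 2.20.0.422, fastp, STAR, HTSeq and the build GRCm39. For options, annotation, strand setting and molecular identifiers the status is: not given in the sources used here. Each deposited value is the authors' whole-number count for 1 gene symbol, not normalized. The numbers inside the files run from 2 to 4 where the titles run from 1 to 3, and the titles were used.

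The comparison used edgeR 4.0.16 under R 4.3.3, with filterByExpr (minimum count 10, minimum total 15), TMM factors and the quasi-likelihood test, with treatment as the only term and Benjamini-Hochberg adjustment over all tested genes. Standard errors are the log2 fold change over the square root of F. All tests are two-sided. The fit was also run on counts simulated with means and dispersions estimated from these libraries. No detection rate from that run is given here, and it does not bear on the calls. No library was a copy of another (chi-square per degree of freedom of 5.54 or more for each pair). Transcript ends of the members (200 bases) were searched with BLAST 2.17.0, counting matches of at least 100 bases at 95% identity. All members are named. Values by library are given for every GTPase, Ifit and Oas gene, the most abundant member of each role, the 4 members with the smallest p in each direction and all members below the filter, and, of the other pathway genes, for ligands with a count, receptors and the smallest p of each list. 1 other gene of that rule is not reported here. Alternatives were other scalings, filters and tools (DESeq2 1.42.0, limma 3.58.1), a replicate block and libraries left out.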

Additional observations from a re-analysis of the deposited data

How the results depend on the processing

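With 14 alternatives no member passed in any, with a smallest adjusted p of 0.902, and no other interferon pathway gene passed. The count of all genes called was 20 without the low-count filter and 0 to 1 with 1 library left out. The replicate block in edgeR called 0 members and gave medians of 0.007 for the members, −0.043 for the GTPases and 0.3 for the Ifit and Oas genes. Deviations from the group means correlated weakly, at 0.0225, 0.027 and 0.048 for same-numbered libraries. For differently numbered libraries the correlations ran from −0.0265 to −0.00315. Each library thus correlated best with its own number, and values this small cannot settle whether the numbers pair the samples. The GTPase median was 0.11 without the filter, where Gbp5 and Gbp6 enter. With 1 library left out, the members' median ran from 0.006 to 0.109, the GTPase median from −0.102 to 0.138 and the Ifit and Oas median from −0.026 to 0.535. Without both APB-R3 replicate 1 and vehicle replicate 2 the last was −0.152. Groups did not overlap in 3 to 5 members with 1 library left out (9.68% to 16.1%, beside 17.4% to 21.0% of all genes) and in 6 without both (beside 32.5%), where fewer libraries are compared. That count does not depend on the tool, the block or library totals and was not recomputed for them. The interval of Ifit1, at 3.08 CPM, ran from −0.76 to 1.5, and that of Ifitm3, at 541 CPM, from −0.16 to 0.20. Depth and scatter between libraries were not separated.

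Of the 30 members, 9 kept their direction in every alternative and 21 turned in at least 1. The log2 fold change of Isg15 was −0.1 and that of Rtp4 −0.05 in limma-voom, Rtp4 had −0.02 with the replicate block, and with library totals only Ifitm2 had 0.00505 and Igtp 0.00554. The cause was not tested. With libraries left out, the log2 fold change ran from −0.58 to 0.52 for Isg15, −0.62 to 0.73 for Ifit1, −0.25 to 0.05 for Stat2, −0.02 to 0.14 for Irf1, −0.08 to 0.47 for Gbp3, −0.16 to 0.01 for Gbp7, −0.15 to 0.66 for Oas1a. It ran from −0.33 to 0.31 for Usp18, −0.03 to 0.11 for Bst2, −0.24 to 0.1 for Ifi44, −0.19 to 0.13 for Ifi35, −0.21 to 0.16 for Rtp4, −0.16 to 0.46 for Xaf1, −0.12 to 0.07 for Ifitm2. The range was −0.04 to 0.05 for Ifitm3, −0.37 to 0.06 for Irgm1, −0.24 to 0.15 for Igtp, −0.18 to 0.06 for Iigp1, −0.25 to 0.05 for Parp14, −0.06 to 0.06 for Trim25 and −0.45 to 0.21 for Adar. Of members that kept their direction, the range was 0.21 to 0.51 for Irf7, 0.24 to 0.58 for Ifit3, 0.13 to 0.79 for Ifit2, 0.07 to 0.51 for Ifih1, 0.07 to 0.52 for Rsad2, −0.73 to −0.09 for Oasl2 and −0.21 to −0.02 for Irf9.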
